A study of Mus musculus with 33 samples.

Results

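Banp and Dynll1 are a pair of mouse genes chosen by their read counts: libraries of old mice treated with nicotinamide riboside (NR) held fewer of their reads than libraries of untreated old mice, both in hematopoietic stem cells (HSCs) and in granulocyte-monocyte progenitors (GMPs). They are 2 of the 55376 gene symbols counted in 33 total RNA-seq libraries. All mice were old C57BL/6 males of 24 to 29 months with no engineered allele. The labels set groups of one cell type and cohort apart by NR treatment or its withdrawal alone. NR, a precursor of NAD+, was given in drinking water for 4 to 6 weeks. In cohort 2, HSCs, common lymphoid progenitors (CLPs) and GMPs came from untreated (O-WT) and treated (O-NR) mice with 4 libraries per group. In cohort 1 only HSCs were profiled, with 2 O-WT libraries, 4 O-NR libraries and 3 libraries of a group named O-NR-RC, the last from mice kept for 2 months after NR was withdrawn. The treated HSC and GMP libraries of cohort 2 chose the genes, so their values there are a description without a test. The CLPs and cohort 1 were not part of that choice and were tested. The levels between cell types were tested as well, but over both treatments, so they include the HSC and GMP libraries that chose the genes.

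BANP (also called SMAR1) is a BEN domain protein of the nucleus that binds nuclear matrix attachment DNA and the unmethylated CTCGCGAG core found in promoters of many housekeeping genes, and it is known as a partner of p53 and of SIN3-HDAC repressor complexes. DYNLL1, also called LC8, is a small light chain of cytoplasmic dynein, the motor that carries cargo towards the minus end of microtubules, and a dimerization hub for proteins outside the motor. Dynll1 is a known target of the ATM-interacting factor ATMIN, which LC8 in turn binds, and ATMIN and DYNLL1 are known in the development of B cells.

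Banp lies at chr8:121949750-122029258 on the plus strand of mm10 (ENSMUSG00000025316.16), and Dynll1 at chr5:115297110-115300999 on the minus strand (ENSMUSG00000009013.5). The merged exons of Banp span 6632 of its 79509 bases. The annotated exons of Dynll1 together cover its whole 3890 bases, so unspliced reads count there as well. Within Banp, the antisense RNA Gm27011 held 0 to 26 reads per library and the antisense pseudogene Gm17709 held 6 to 99. Dynll1 has 4 processed pseudogenes alike over 246 to 270 bases at 91.7 to 96.7% identity, of which Gm6788 held the most reads, 0 to 61 per library. No setting for strand or for reads with several positions is given in the sources used here, so reads of Dynll1 shared with these copies, and reads of Banp shared with its antisense genes, are uncertain.

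The promoter of Dynll1 is shown because Dynll1 was the member with a RefSeq promoter window (GRCm38.p6), and because the core that BANP binds could be looked for in it. Its 250 bases upstream of the start, chr5:115300991-115301240 on the minus strand, are given 5′ to 3′ with CCAAT and the GC box GGGCGG in capitals.
Dynll1: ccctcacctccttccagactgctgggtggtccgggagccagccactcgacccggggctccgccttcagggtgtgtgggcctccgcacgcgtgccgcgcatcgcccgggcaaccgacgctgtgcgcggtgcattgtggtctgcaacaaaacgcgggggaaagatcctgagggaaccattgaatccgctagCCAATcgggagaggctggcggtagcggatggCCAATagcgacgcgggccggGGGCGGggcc
The stretch is 68.8% G and C, against a median of 52.4% over all windows. It holds CCAAT at 61 and at 30 bases before the start and the GC box at 10 bases before it. Of 32851 windows read on both strands, 37.4% hold CCAAT and 35.7% hold GGGCGG. The letters CTCGCGAG are not in the Dynll1 window, and 302 windows (0.919%) hold them. The NRF1 letters CGCATGCG, which 1.87% of windows hold, are not in it either.

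The sorted populations carried their defining markers. Summed levels of the 5 HSC markers (Slamf1, Mecom, Procr, Hlf, Fgd5) were 966 to 1234 counts per megaread (CPM) in the HSCs of cohort 2, against 27.5 to 90.3 CPM in CLPs and GMPs. Those of the 5 CLP markers (Il7r, Dntt, Flt3, Rag1, Ebf1) were 2038 to 4485 CPM in CLPs, against 24.2 to 43.2 CPM in HSCs and GMPs of cohort 2. Those of the 5 GMP markers (Mpo, Elane, Prtn3, Ctsg, Fcgr3) were 16277 to 19618 CPM in GMPs, against 86.2 to 571 CPM in HSCs and CLPs of cohort 2. The titles call these libraries GMP while their source label names common myeloid progenitors, the cells from which GMPs derive, and the titles were followed. Library depth ranged from 4792380 reads in CLP O-WT replicate 3 to 23816042. Reads on olfactory and vomeronasal receptor genes, which these cells are not known to use, set 4 libraries of cohort 1 apart at 14277 to 15260 CPM (O-NR replicates 1 and 2, O-NR-RC replicates 2 and 3), against 4445 to 9082 CPM in the other 5 and 858 to 8303 CPM in cohort 2. The highest of cohort 2 was again CLP O-WT replicate 3. No separate culture or animal is named in the labels for any library, so p-values measure the spread between these libraries.

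In HSCs of cohort 2, Banp stood at 47.4, 59.0, 49.3 and 52.5 CPM in the O-WT libraries and at 41.8, 34.6, 27.5 and 27.9 CPM in the O-NR libraries. Each O-NR library lay below each O-WT library, as for 0.933% of the genes tested in HSCs. The means were 52.0 ± 5.13 and 32.9 ± 6.77 CPM (SD, n = 4 each), a log2 fold change of -0.66 with a standard error (SE) of 0.13. Here and below, CPM are scaled by the trimmed mean of M values (TMM) among the libraries of one cell type and cohort, and fold changes come from edgeR.

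Dynll1 stood at 33.6, 31.4, 39.4 and 42.6 CPM in O-WT HSCs and at 21.0, 22.8, 21.4 and 26.5 CPM in O-NR HSCs. The groups again did not overlap. The means were 36.7 ± 5.17 and 22.9 ± 2.53 CPM, with a log2 fold change of -0.69 (SE 0.13). In bulk libraries, fewer cells that express a gene and less RNA per cell cannot be told apart. Over all 17364 genes tested in HSCs, 0.777% passed the unadjusted p threshold of 0.01, and both members did so by their choice. Of 4 plasma and B cell markers tested, Ighm and Xbp1 also passed, lower with NR, and the summed level of all 6 in that list was 155 to 923 CPM in O-WT and 51.2 to 177 CPM in O-NR HSCs. HSCs had been sorted as negative for lineage antigens, B220 and IL-7Rα among them. The part of plasma and B cells in the values of Banp and Dynll1 was not tested.

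In GMPs, Banp stood at 32.9, 48.2, 46.7 and 38.3 CPM in O-WT and at 27.4, 26.6, 22 and 22.3 CPM in O-NR libraries. The means were 41.5 ± 7.24 and 24.6 ± 2.82 CPM, with a log2 fold change of -0.75 (SE 0.12), and the groups did not overlap, as for 1.87% of the genes tested in GMPs, lower with NR. Dynll1 stood at 113, 121, 108 and 109 CPM in O-WT and at 91.3, 78.9, 70.5 and 76.4 CPM in O-NR GMPs. Its means were 113 ± 5.97 and 79.3 ± 8.77 CPM, with a log2 fold change of -0.51 (SE 0.08). The lowest O-WT library of Dynll1 stood above the highest O-NR library. In GMPs 0.986% of 13486 genes passed, again both members by their choice. Only 2 of the 6 genes of the plasma and B cell list were tested there, and neither had an edgeR p under 0.05 or a DESeq2 p under 0.01. The summed level of all 6 overlapped between the treatments, at 142 to 182 CPM in O-WT and 129 to 212 CPM in O-NR GMPs.

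**Figure D1:**
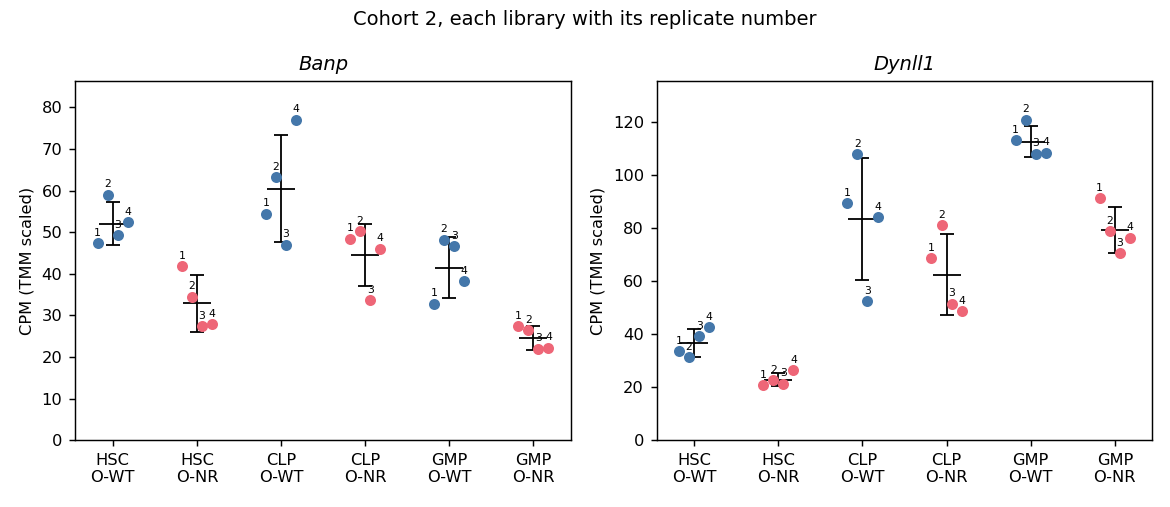
Levels of Banp (left) and Dynll1 (right) in the 24 libraries of cohort 2, in TMM scaled CPM (y axis) by cell type and treatment (x axis). Points are libraries with their replicate numbers (blue, O-WT; red, O-NR), and bars are the mean ± SD of 4 libraries; the treatments separate fully in HSCs and GMPs and overlap in CLPs.

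CLPs gave the test of the same contrast in a cell type that had not chosen the genes. Banp stood at 54.4, 63.3, 47.0 and 77.1 CPM in O-WT and at 48.5, 50.2, 33.8 and 46.1 CPM in O-NR CLPs. The means were 60.5 ± 12.9 and 44.6 ± 7.44 CPM (SD, n = 4 each). The O-WT library at 47.0 CPM, replicate 3, was inside the O-NR range, and 1.4% of the genes tested in CLPs had each O-NR library below each O-WT library. CPM are divided by TMM factors, and that of this library was 1.29, against 0.90 to 1.08 in the other CLP libraries. Without the scaling, its 290 Banp reads of 4792380 were a larger share than in any O-NR library. The highest of those was O-NR replicate 1, with 416 of 8827002. Unscaled levels were not tested. The log2 fold change was -0.44 (SE 0.19, 95% interval -0.82 to -0.05), with an adjusted p of 1.00 by edgeR's quasi-likelihood test. Banp did not pass the unadjusted threshold of 0.01. The exact two-sided permutation test gave p = 0.0857 (0.571 adjusted over 8 comparisons), where 0.0286 is the smallest that 4 against 4 allows.

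Dynll1 stood at 89.5, 108, 52.5 and 84.2 CPM in O-WT and at 68.8, 81.1, 51.6 and 48.6 CPM in O-NR CLPs. The means were 83.5 ± 23.0 and 62.5 ± 15.2 CPM. Its log2 fold change was -0.42 (SE 0.21, 95% interval -0.84 to 0.01), with an edgeR adjusted p of 1.00 and an exact permutation p of 0.143. Neither member was called in CLPs, where 0.412% of 19909 genes passed. Without O-WT replicate 3, the shallowest library and the one with the most receptor reads of cohort 2, both passed the unadjusted 0.01, Banp at -0.53 (SE 0.17) and Dynll1 at -0.58 (SE 0.17), each with an edgeR adjusted p of 1.00. The intervals of the CLP fit with all 8 libraries hold the fold changes of both members in HSCs and in GMPs. The size of the response in CLPs was not compared by a test with that in HSCs or GMPs, which chose the genes.

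Levels of the pair were correlated across the CLP libraries. Over the 8 CLP libraries, log2 CPM of Banp and Dynll1 correlated with Pearson r = 0.739 (exact permutation p = 0.0292) and Spearman rho = 0.905 (exact permutation p = 0.0046). Adjusted over the 2 relations computed, in CLPs and in cohort 1, these were 0.0292 and 0.0061. Without the 2 libraries farthest from the median of Banp, r was 0.911 (n = 6, exact permutation p = 0.0028). With the mean of each treatment removed, r was 0.63 and rho was 0.548, given without a test. The correlation missed the 0.05 threshold when O-WT replicate 1 or O-NR replicate 3 was left out, and its lowest value among such fits was 0.682. In HSCs and GMPs of cohort 2, where the choice of genes fixes part of it, r was 0.70 and 0.913 over all 8 libraries and -0.41 and 0.512 with treatment means removed. In scaled CPM of CLPs, replicate 3 of each treatment was lowest for Banp and also for Dynll2, Atmin and Atm. These 3 were at 19.6, 18.8 and 118 CPM in that O-WT library and at 25.8, 25.5 and 128 CPM in that O-NR library. The share of all genes that correlated as strongly with Banp in CLPs was not computed.

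Among the O-NR libraries, replicate 3 had the lowest and replicate 4 the second lowest Banp level in HSCs, CLPs and GMPs alike. Among the O-WT libraries there was no common order, with the lowest Banp in replicate 1 in HSCs and GMPs and in replicate 3 in CLPs. For Dynll1 the lowest O-NR replicate was 1 in HSCs, 3 in GMPs and 4 in CLPs. The names of the deposited files carry 8 numbers, each in 3 libraries, 1 per cell type, with the same treatment and replicate. The 3 cell types may therefore share mice, and their values cannot be counted as independent. Over all genes, deviations from the group mean were no more alike under the same number: libraries of 2 cell types with the same number correlated at a mean r of -0.026 (24 pairs), against 0.0085 for those with other numbers (72 pairs).

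Cohort 1 repeated the NR contrast in HSCs of other libraries. Banp stood at 41.2 and 49.1 CPM in O-WT libraries, at 31.6, 32.5, 47.3 and 45.8 CPM in O-NR libraries and at 43.4, 30.9 and 33.6 CPM in O-NR-RC libraries. The means were 45.1 ± 5.60 (n = 2), 39.3 ± 8.41 (n = 4) and 35.9 ± 6.60 CPM (n = 3). O-NR minus O-WT was -0.20 on the log2 scale (SE 0.31, 95% interval -0.86 to 0.46, edgeR adjusted p = 1.00). The exact permutation test gave p = 0.467, where 0.0667 is the smallest that 2 against 4 allows, so this design cannot reach 0.05. The interval holds the value of -0.66 from the HSCs of cohort 2 as well as 0.

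Dynll1 stood at 18.2 and 26.7 CPM in O-WT HSCs of cohort 1, at 18.8, 15.0, 34.7 and 25.9 CPM in O-NR HSCs and at 25.5, 16.5 and 17.5 CPM in O-NR-RC HSCs. The means were 22.4 ± 6.0, 23.6 ± 8.69 and 19.8 ± 4.94 CPM, and all 3 groups overlapped. O-NR minus O-WT was 0.07 on the log2 scale (SE 0.34, 95% interval -0.67 to 0.82, edgeR adjusted p = 1.00, exact permutation p = 0.867). The lower bound of that interval lay just above the value of -0.69 in HSCs of cohort 2. That value chose Dynll1 and has its own 95% interval of -0.95 to -0.42, which overlaps the interval of cohort 1. Whether the cohorts differ was not tested. Neither member passed 0.01 in this contrast, as 0.048% of 33350 genes did.

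After withdrawal, O-NR-RC minus O-NR was -0.13 for Banp (SE 0.27, 95% interval -0.72 to 0.46, edgeR adjusted p = 1.00) and -0.25 for Dynll1 (SE 0.30, 95% interval -0.91 to 0.41, edgeR adjusted p = 1.00). Neither was among the 0.036% of genes that passed. Against O-WT, Banp in O-NR-RC differed by -0.33 (SE 0.32, 95% interval -1.02 to 0.37, edgeR adjusted p = 1.00) and Dynll1 by -0.18 (SE 0.36, 95% interval -0.96 to 0.60, edgeR adjusted p = 1.00). Neither was among the 0.078% that passed there. The exact permutation p-values of these 4 comparisons were 0.3 to 0.629. In O-NR-RC against O-NR, 4 of 6 mature neutrophil markers (S100a8, S100a9, Ltf, Ngp) passed 0.01 and were higher, as were 2 of 5 tested plasma and B cell markers (Ighm, Igkc) and 1 of 5 erythroid markers (Hbb-bs). Against O-WT, Ighm, Igkc and S100a9 were higher. Summed levels of the neutrophil list were 59.3 to 93.1 CPM in O-NR-RC, 33.7 to 44.9 CPM in O-NR and 36.3 to 54.7 CPM in O-WT libraries. Those of the plasma and B cell list were 62.9 to 287 CPM, 52.8 to 84.5 CPM and 58.8 to 60.9 CPM, and those of the erythroid list 13.6 to 105 CPM, 12.6 to 16.1 CPM and 17.4 to 52.0 CPM. The calls of Hbb-bs, Igkc, Ltf, Ngp and S100a8 against O-NR, and of Ighm, Igkc and S100a9 against O-WT, were lost under at least 1 alternative. Ter119, Gr1 and Mac1 were also among the antigens the sort excluded. The part of these cells in the values of the pair was not tested.

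The 4 libraries of cohort 1 with the most receptor reads were also those with the lowest scaled Banp, at 30.9 to 33.6 CPM. The other 5 had 41.2 to 49.1 CPM, with no overlap. Scaled CPM are divided by TMM factors, which were 1.23 to 1.32 in those 4 and 0.67 to 0.97 in the others. Without the scaling, the ranges of Banp overlapped. It held 393 of 8897256 reads in O-NR-RC replicate 3, of the 4, and a smaller share, 694 of 23816042, in O-NR-RC replicate 1, of the other 5. Dynll1 was at 15.0 to 18.8 CPM in those 4 and at 18.2 to 34.7 CPM in the others. In scaled CPM, the split was not particular to Banp. Dynll2 was at 24.8 to 30.2 CPM in those 4 and at 44.1 to 66.4 CPM in the others. Atmin was at 27.0 to 31.9 against 45.9 to 80.9 CPM, and Atm at 91.0 to 96.2 against 140 to 170 CPM. The share of all genes that split in this way was not counted. Of the 4, 2 were O-NR and 2 were O-NR-RC libraries, and none was O-WT. With only the other 5 libraries (2 O-WT, 2 O-NR, 1 O-NR-RC), O-NR minus O-WT was 0.00 for Banp (SE 0.14, edgeR adjusted p = 1.00) and 0.39 for Dynll1 (SE 0.19, edgeR adjusted p = 0.623). O-NR-RC minus O-NR was then -0.20 for Banp and -0.35 for Dynll1, and O-NR-RC minus O-WT was -0.20 and 0.04, with the single O-NR-RC library taken to vary like the other groups. Since the libraries fall into separate clusters of 4 and 5, each under 6 libraries, the pooled correlation of Banp with Dynll1 over cohort 1 is not given; it was computed, and counts among the 2 relations of the adjustment above.

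**Figure D2:**
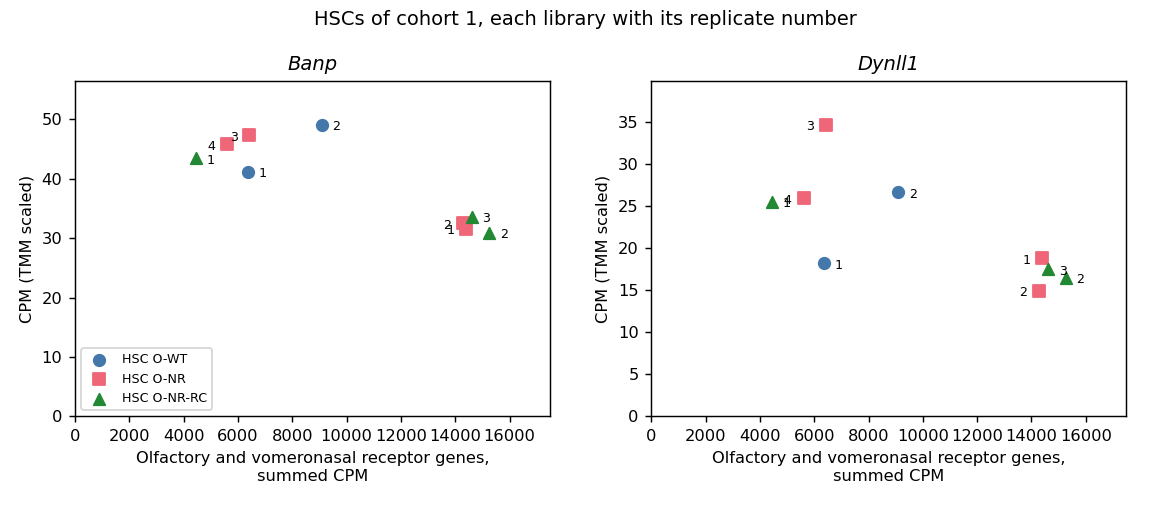
Levels of Banp (left) and Dynll1 (right) in the 9 HSC libraries of cohort 1, in TMM scaled CPM (y axis), against the summed CPM of olfactory and vomeronasal receptor genes in the same library (x axis). Each point is a library with its replicate number (circles, O-WT; squares, O-NR; triangles, O-NR-RC). The 4 libraries above 10000 CPM of receptor reads have the 4 lowest scaled values of Banp, as they do of Dynll2, Atmin and Atm, which are not shown. Those 4 also have the highest TMM factors, by which CPM are divided, and unscaled Banp overlaps.

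Across cell types, Banp and Dynll1 behaved differently. The levels that follow are scaled over all 24 libraries of cohort 2 and given per kilobase of exon, with 8 libraries per cell type over both treatments. Banp was at 6.15 ± 1.60 CPM per kilobase in HSCs, 7.02 ± 1.89 in CLPs and 5.88 ± 1.90 in GMPs. By treatment, its means in HSCs, CLPs and GMPs were 7.35, 7.90 and 7.38 in O-WT and 4.94, 6.14 and 4.39 in O-NR libraries. The O-NR HSCs and GMPs were among the libraries that chose Banp, so the averages over treatments are not free of that choice. No neighbours in the order CLP, HSC, GMP differed past the threshold: the log2 difference, averaged over treatments, was -0.21 for HSC minus CLP (SE 0.15, adjusted p = 0.232), 0.08 for HSC minus GMP (SE 0.15, adjusted p = 0.646) and 0.29 for CLP minus GMP (SE 0.15, adjusted p = 0.0668). Adjusted p under 0.05 was reached by 44.1%, 48.1% and 69.9% of 22573 genes in these 3 contrasts. The median of all genes was itself at -0.13, 0.28 and 0.41, and relative to it Banp was at -0.08, -0.20 and -0.12. Upper quartile scaling moved those medians to -0.35, 0.46 and 0.80. It called Banp lower in HSCs than in CLPs (-0.43) and higher in CLPs than in GMPs (0.67), and the value for HSC minus GMP turned to -0.12 with DESeq2 size factors.

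Dynll1 was at 7.40 ± 2.17 CPM per kilobase in HSCs, 16.7 ± 5.13 in CLPs and 29.1 ± 6.07 in GMPs. Each step was past the threshold, with HSC minus CLP at -1.20 (SE 0.16, adjusted p = 3.1e-09), CLP minus GMP at -0.79 (SE 0.15, adjusted p = 1.78e-05) and HSC minus GMP at -1.99 (SE 0.16, adjusted p = 1.56e-16) by edgeR. Relative to the median of all genes these were -1.07, -1.20 and -2.27. The order GMP, CLP, HSC and its 3 calls were the same under the 31 alternatives run for each contrast. By treatment, Dynll1 was at 24.1 ± 3.31 CPM per kilobase in O-NR GMPs and at 8.95 ± 1.99 in O-WT HSCs (n = 4 each).

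Dynll2 encodes the other LC8 light chain, and it ordered the cell types in another way. It was at 18.7 ± 4.62 CPM per kilobase in HSCs, 10.3 ± 2.78 in CLPs and 16.4 ± 1.71 in GMPs. Dynll2 was higher in HSCs than in CLPs (log2 difference 0.86, SE 0.16, adjusted p = 7.54e-06) and lower in CLPs than in GMPs (-0.66, SE 0.16, adjusted p = 0.00033), while HSC minus GMP was 0.20 (SE 0.15, adjusted p = 0.289). Per length, the mean of Dynll2 stood above that of Dynll1 in HSCs and below it in CLPs and GMPs, under the annotation of Dynll1 as exon throughout.

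**Figure D3:**
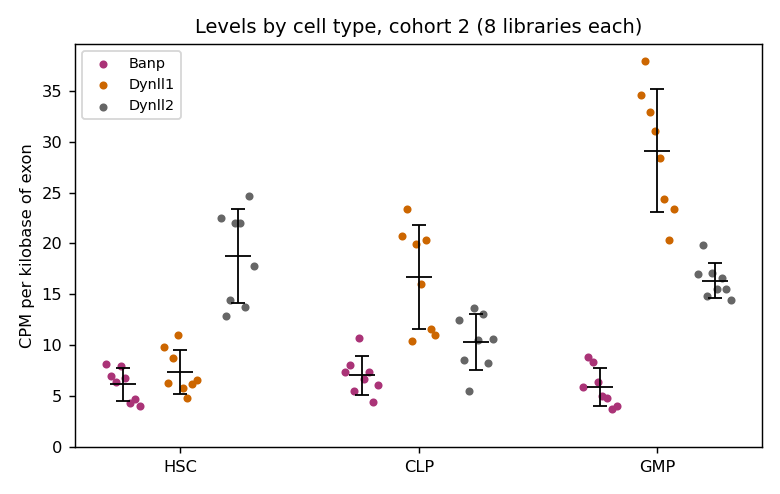
Levels of Banp, Dynll1 and Dynll2 in CPM per kilobase of exon (y axis), scaled over all 24 libraries of cohort 2, in HSCs, CLPs and GMPs (x axis). Points are libraries of both treatments and bars are the mean ± SD of 8; the mean of Dynll1 goes from 7.40 in HSCs to 29.1 in GMPs, while Banp stays between 5.88 and 7.02.

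The paralog and the regulators of Dynll1 had no called NR change. Dynll2 was at 0.05 in HSCs (SE 0.12), -0.15 in GMPs (SE 0.09) and 0.01 in CLPs (SE 0.21) on the log2 scale for O-NR minus O-WT in cohort 2. Atmin, the transcription factor of Dynll1, was at 0.14 (SE 0.10), 0.11 (SE 0.10) and 0.12 (SE 0.21). Atm, the DNA damage kinase that ATMIN binds, was at 0.05 (SE 0.12), -0.06 (SE 0.07) and 0.05 (SE 0.20). None of these values had an edgeR p under 0.05, and DESeq2 called none at 0.01. In cohort 1 the 3 genes were at -0.02 (Dynll2), -0.15 (Atmin) and -0.12 (Atm) for O-NR minus O-WT, with SEs of 0.46 to 0.47. O-NR-RC minus O-NR was -0.20, 0.04 and -0.14 for Dynll2, Atmin and Atm, and O-NR-RC minus O-WT was -0.22, -0.11 and -0.26, none past 0.01. Between cell types, Atmin was higher in HSCs than in CLPs (0.79, adjusted p = 1.44e-05) and GMPs (0.38, adjusted p = 0.0309). It was lower in CLPs than in GMPs (-0.42, adjusted p = 0.0134). The call of Atmin for HSC minus GMP depended on the processing, as it was lost in 17 alternatives and kept in 14. That for CLP minus GMP was lost in 1 and kept in 30. In the main fit Atm did not differ past the threshold (adjusted p of 0.148 to 0.762). It was at -0.06 for HSC minus CLP, -0.27 for HSC minus GMP and -0.21 for CLP minus GMP. This also depended on the processing. Atm was called lower in HSCs than in GMPs in 18 alternatives and not called in 13. It was called lower in CLPs than in GMPs in 13 alternatives, kept uncalled in 17 and reversed in sign in 1. For HSC minus CLP it was called lower in 1.

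**Figure D4:**
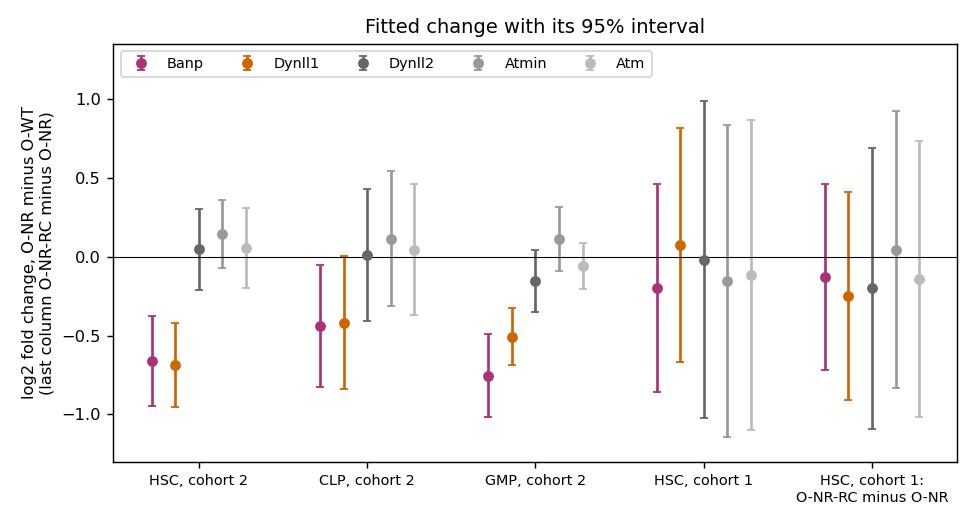
Fitted log2 fold change (y axis) of Banp, Dynll1, Dynll2, Atmin and Atm with its 95% interval, for O-NR minus O-WT by cell type in cohort 2 and for HSCs of cohort 1, and for O-NR-RC minus O-NR in cohort 1 (x axis). The intervals of Banp and Dynll1 lie below 0 in HSCs and GMPs of cohort 2, which chose them, the interval of Dynll1 in CLPs reaches 0.01, and all intervals of cohort 1 include 0.

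No other gene of the dynein motor, dynactin or LC8 lists passed the threshold by edgeR. The shares over all genes, 0.777% in HSCs, 0.986% in GMPs and 0.412% in CLPs, would also give fewer than 1 call in lists of this size. Of the dynein motor list 0 of 10 tested genes passed 0.01 in HSCs, 0 of 9 in GMPs and 0 of 11 in CLPs, with median log2 fold changes of 0.05, -0.05 and 0.05 against medians of -0.01, 0.00 and 0.00 over all genes. Of 21 dynactin subunits and cargo adaptors, 0 passed in any of the 3 cell types, with medians of 0.03, -0.02 and 0.09. Of the LC8 partners and regulators, 0 of 12, 0 of 11 and 0 of 12 passed, with medians of 0.03, -0.02 and 0.06. At an unadjusted edgeR p under 0.05, 1 dynein motor gene passed in CLPs, 2 dynactin genes passed in GMPs and 0 of the LC8 list passed in any of the 3 cell types. DESeq2 called 0 genes of these 3 lists at 0.01, except 1 dynactin gene, Bicd2, in GMPs.

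Around Banp, 1 of 14 tested partners and p53 targets passed in GMPs, and 0 of 15 in HSCs and in CLPs, against 0.986%, 0.777% and 0.412% of all genes. That gene was Sin3b, a scaffold of the SIN3 corepressor, at 62.4 ± 3.55 CPM in O-WT and 53.4 ± 2.44 CPM in O-NR GMPs (log2 fold change -0.22, SE 0.07, edgeR adjusted p = 0.923). Its call was lost with the replicate block, with a filter at 1 CPM, with no filter and in 5 of the 8 fits that left out 1 library, at -0.26 to -0.20. Of the BEN domain family, 1 of 7 tested genes passed in HSCs, 0 of 4 in GMPs and 0 of 7 in CLPs. Bend3, a BEN domain repressor found in heterochromatin, rose in HSCs by 0.44 (SE 0.11, n = 4 each, edgeR adjusted p = 0.823), opposite in direction to Banp, and did not pass with no filter (0.48). In cohort 1, 0 genes of these 5 lists passed 0.01 in any contrast, by edgeR or DESeq2, and 0 passed 0.05 by edgeR. In cohort 2, the counts of 0 in these last lists were 1 (partners in HSCs), 0 (partners and BEN domain genes in CLPs) and 1 (BEN domain genes in GMPs) at an edgeR p under 0.05, and 0 by DESeq2 at 0.01.

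The genes whose promoter window holds the BANP core were counted in the same way. Of 262 such symbols, 230 were tested in HSCs, 220 in GMPs and 236 in CLPs. In HSCs 1 passed and was higher, in GMPs 1 passed and was lower, and in CLPs 1 passed and was higher, which is 0.435%, 0.455% and 0.424% of the list against 0.777%, 0.986% and 0.412% of all genes. The median log2 fold change of the list was 0.04 in HSCs, 0.00 in GMPs and 0.12 in CLPs. In cohort 1, 0 of 257 passed 0.01 in any contrast by edgeR or DESeq2, 0 had an edgeR p under 0.05, and the median for O-NR minus O-WT was -0.14, against -0.01 over all genes. Stretches of 30 bases around the core of the 3 genes that passed are shown 5′ to 3′ on the strand of the gene (GRCm38.p6), with the 8 bases of the core in capitals.
Wdr73, chr7:80901276-80901305, minus strand: cacgccctctcCTCGCGAGagcgcgcgcct
Upf3b, chrX:37110373-37110402, minus strand: ggccttaaactCTCGCGAGatctccgggag
Nktr, chr9:121719167-121719196, plus strand: ttgcgtccggcCTCGCGAGctctggcgtgg
The core begins 25, 69 and 3 bases before the start of these genes. Wdr73, a WD repeat protein, rose in HSCs by 0.40 (SE 0.11, edgeR adjusted p = 0.995), a call lost with a filter at 1 CPM, with no filter and without O-WT replicate 2, O-NR replicate 1 or O-NR replicate 3 (0.32 to 0.44). Upf3b, a factor of nonsense-mediated mRNA decay, rose in CLPs by 0.53 (SE 0.18, edgeR adjusted p = 1.00), a call lost with a filter at 1 CPM, with no filter and in 5 of the 8 fits that left out 1 library (0.44 to 0.58). Nktr, a cyclophilin-related protein, was at -0.26 in GMPs (SE 0.08, edgeR adjusted p = 0.905), a call lost with a filter at 1 CPM, with no filter, with the replicate block and in 4 of the 8 fits that left out 1 library (-0.29 to -0.20).

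Of the 3 nearest genes on each side of Banp and of Dynll1 that were tested, 1 of 12 passed 0.01 in HSCs, 0 in GMPs and 1 in CLPs, against 0.777%, 0.986% and 0.412% of all genes. It was in both cases Slc7a5, the light subunit of a large neutral amino acid transporter, 42.1 kilobases from Banp. Slc7a5 was higher with NR, at 0.57 in HSCs (SE 0.14, edgeR adjusted p = 0.793) and 0.62 in CLPs (SE 0.20, edgeR adjusted p = 1.00), and at 0.16 in GMPs (SE 0.10), where it did not pass. In CLPs its call was lost with no filter (0.65) and without O-NR replicate 4 (0.52). Coq5, a ubiquinone synthesis enzyme that ends 138 bases from Dynll1, was at -0.20 in HSCs, 0.06 in GMPs and 0.15 in CLPs, with no call. In GMPs 0 of the 12 had an edgeR p under 0.05, and DESeq2 called 0 at 0.01.

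Few genes shared the pattern that chose the pair. Of 13248 genes tested in both HSCs and GMPs of cohort 2, 11 passed 0.01 in both, 8 lower and 3 higher, and 0 passed in opposite directions. Beside Banp and Dynll1, the lower genes included 4 chaperones or co-chaperones (Hsph1, Dnaja1, Hspa8 and Hspa5) and the chemokine receptor Cxcr4. The higher genes were Cirbp, a cold-inducible RNA-binding protein, Arl2bp, which binds the small GTPase ARL2, and the pyruvate dehydrogenase kinase Pdk1. Hspa8 in HSCs and Hspa5 in GMPs lay close inside the threshold, at log2 fold changes of -0.45 and -0.31.

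In CLPs, which had no part in choosing them, all 11 had the sign they had in HSCs and GMPs, and 2 passed 0.01. Over all genes tested in CLPs, 50.7% were below 0 and 0.412% passed. Since the 3 cell types may share mice, the shared signs cannot be counted as an independent repeat. Hsph1, an HSP110 chaperone, fell by 1.04 on the log2 scale (SE 0.23, edgeR adjusted p = 0.932), and Cirbp rose by 0.76 (SE 0.24, edgeR adjusted p = 1.00). The call of Cirbp was lost without O-WT replicate 3 (0.57). Dnaja1 was at -0.41 and Hspa8 at -0.55 in CLPs, near Banp at -0.44 and Dynll1 at -0.42 (SEs of 0.21 and 0.29), and neither passed. In HSCs of cohort 1, 0 of the 11 passed 0.05 by edgeR or 0.01 by DESeq2, with values from -0.66 (Cirbp, SE 0.64) to 0.08 (Hsph1, SE 0.36).

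**Figure D5:**
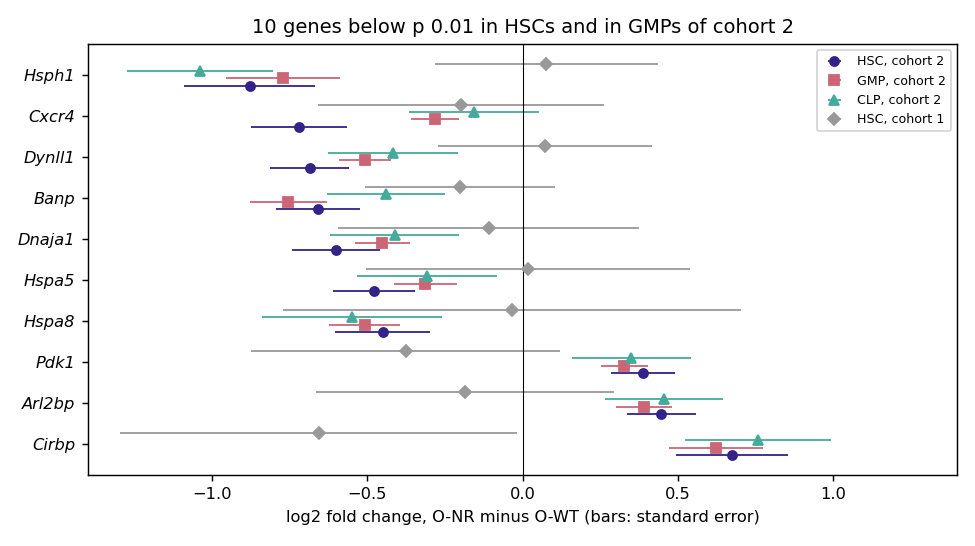
Log2 fold change of O-NR minus O-WT (x axis) for the 10 genes with the largest change in HSCs among the 11 past p 0.01 in both HSCs and GMPs of cohort 2 (y axis), in HSCs, GMPs and CLPs of cohort 2 and HSCs of cohort 1; bars are standard errors. In CLPs each gene shown lies on the side of 0 on which it lies in HSCs and GMPs, and in cohort 1 Hsph1, Dynll1, Hspa5, Pdk1, Arl2bp and Cirbp lie on the other side.

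The genes most like each member over the 24 libraries of cohort 2 were ranked by Pearson r of log2 CPM, as a description over libraries that share cell types, treatments and possibly mice. For Banp they were Cep162 (r = 0.746), a centriole protein, Dnaja1 (0.716), Washc4 (0.702), a subunit of the WASH complex on endosomes, Slx4ip (0.686) and Gm28373 (0.673). For Dynll1 they were Bhlha15 (0.953), Rangap1 (0.951), Sla (0.948), Zfp131 (0.946) and H2afz (0.945), each with its mean CPM lowest in HSCs and highest in GMPs as for Dynll1 itself. Banp and Dynll1 correlated with each other at 0.257 on this measure.

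With the mean of each cell type removed, a measure chosen after the values were seen, that correlation was 0.771. The nearest genes to Banp were then Dnaja1 (0.881), Hspa8 (0.830), Hspa5 (0.773), Dynll1 (0.771) and Cep162 (0.769). The nearest to Dynll1 were Hspa8 (0.877), Dnaja1 (0.874), Hspa5 (0.861), Entr1 (0.831) and Ccdc117 (0.819). The cytosolic HSP70 Hspa8, its co-chaperone Dnaja1 and the endoplasmic reticulum chaperone Hspa5 thus stood among the 5 nearest genes of both members. These 3 also passed 0.01 in the contrasts that chose the members, so the choice fixes part of this likeness.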

How the data were processed

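Total RNA of sorted bone marrow cells was made into libraries with the SMARTer total RNA-seq kit. The authors trimmed reads with cutadapt, aligned them with STAR to GENCODE M22 features and deposited raw featureCounts read counts per gene symbol, 1 file per library. No 2 libraries of a group were alike enough to be 1 library (smallest chi-square per degree of freedom 1.96).

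Counts were fitted here with edgeR 4.0.16 in R 4.3.3 (quasi-likelihood test, TMM scaling) after keeping genes over 3 CPM in at least 4 libraries of a cohort 2 fit or 2 of the cohort 1 fit. HSCs, CLPs and GMPs were fitted alone for NR, cohort 1 as 1 fit of 3 groups, and cell types over all 24 libraries of cohort 2. NR and withdrawal were called at an unadjusted p of 0.01, the p threshold of the study's heatmaps, and cell types at an adjusted (Benjamini-Hochberg) p of 0.05. The fold change limit that the study's methods also give was not applied. No gene reached an adjusted p of 0.05 in any NR or withdrawal fit; 705 (HSC), 640 (CLP), 651 (GMP), 182, 97 and 265 genes (cohort 1: O-NR against O-WT, O-NR-RC against O-NR and against O-WT) had an unadjusted p under 0.05. DESeq2 1.42.0 gave 4 genes at an adjusted p under 0.05 in HSCs, 8 in GMPs, 2 for O-NR-RC against O-NR and 0 in the other fits. The fits were tested on simulated data. CPM in correlations had a prior count of 2.

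Members and gene lists were chosen with earlier results of these data known. The genes named are Banp, Dynll1, Dynll2, Atmin and Atm; up to 2 genes per list with the smallest p under 0.01; the 3 nearest tested genes on each side; the 5 genes most correlated with each member; and genes under 0.01 in both HSCs and GMPs, 1 of which is not reported here by name. Bicd2, called genes of the marker lists and genes higher in both were named after their values were seen. Positions are from GENCODE M21 (mm10). Intervals cover counting error and spread between libraries.

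Alternatives were another scaling (DESeq2 size factors, upper quartile), a filter at 1 CPM or none, DESeq2, a replicate block, 1 factor of unwanted variation, the O-WT libraries alone, leaving out each library and, chosen after seeing the data, cohort 1 without its 4 libraries over 10000 receptor CPM.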

Additional observations from a re-analysis of the deposited data

How the results depend on the processing

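Banp and Dynll1 in HSCs and GMPs of cohort 2 were past the threshold by their choice, so the range of their values is a description: over 15 alternatives Banp ranged from -0.81 to -0.58 in HSCs and from -0.86 to -0.67 in GMPs, and Dynll1 from -0.77 to -0.61 and from -0.58 to -0.45. The CLP result of Banp passed 0.01 with upper quartile scaling (-0.50) and with 1 factor of unwanted variation (-0.44), and that of Dynll1 with the factor (-0.43); leaving out 1 library gave -0.53 to -0.27 for Banp and -0.58 to -0.25 for Dynll1, past 0.01 only without O-WT replicate 3. The shallowest CLP library held 4792380 reads, and the part of depth was not tested. Leaving out 1 library gave r of 0.68 to 0.81 for the CLP correlation. Causes of these changes were not tested.

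In cohort 1, Dynll1 for O-NR minus O-WT changed sign with the replicate block (-0.20) and ranged from -0.18 to 0.37 when 1 library was left out, below 0 without O-WT replicate 1 or O-NR replicate 3; Banp was 0.0025 in the 5 libraries under 10000 receptor CPM. Against O-WT, O-NR-RC gave -0.34 for Banp with 1 factor (past 0.01), and 0.043 for Dynll1 in those 5 libraries and -0.43 to 0.076 when 1 library was left out, above 0 without O-WT replicate 2. Whether replicate numbers pair the treatments could not be decided from so few pairs. The mean correlation of deviations between libraries with the same number was 0.135 in HSCs, 0.031 in CLPs, 0.048 in GMPs and 0.029 in cohort 1. Between libraries with other numbers it was -0.045, -0.0095, -0.017 and -0.0069. In HSCs the 4 pairs with the same number ranged from -0.35 to 0.65. In the same order of sets, 3, 2, 1 and 4 of 8 libraries correlated best with their own number. With the replicate block the genes called were 247 in HSCs and 185 in CLPs; it changed no other call of Banp or Dynll1.

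Between cell types Banp gave -0.43 (HSC minus CLP) and 0.67 (CLP minus GMP) with upper quartile scaling, both then called, and 0.11 to 0.38 for CLP minus GMP when 1 library was left out, called without CLP O-WT replicate 3. HSC minus GMP for Banp was -0.12 with DESeq2 size factors, -0.12 with DESeq2 and -0.092 with no filter, and -0.051 to 0.13 when 1 library was left out.

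Sign changes of genes beside the pair were as follows. Dynll2 turned to -0.032 and Atm to -0.0096 in CLPs with upper quartile scaling. In cohort 1, O-NR minus O-WT of Dynll2 was 0.026 with DESeq2 size factors, 0.026 with DESeq2 and 0.015 with upper quartile scaling, and in the 5 libraries it was 0.38, with Atmin at 0.17 and Atm at 0.19. O-NR-RC minus O-NR was -0.0100 (upper quartile) and -0.044 (1 factor) for Atmin, 0.016 (replicate block) for Atm and 0.020 (5 libraries) for Dynll2; O-NR-RC minus O-WT in the 5 libraries was 0.40 for Dynll2, 0.56 for Atmin (past 0.01) and 0.13 for Atm. Between cell types Atm was 0.086 (HSC minus CLP, filter at 1 CPM) and 0.16 (CLP minus GMP, upper quartile), and Dynll2 was -0.0020 (HSC minus GMP) both with DESeq2 size factors and with DESeq2. When 1 library was left out, ranges that crossed 0 were, for O-NR minus O-WT, -0.016 to 0.13 (Dynll2) and -0.0025 to 0.17 (Atm) in HSCs, -0.15 to 0.18 (Dynll2), -0.022 to 0.37 (Atmin) and -0.066 to 0.16 (Atm) in CLPs, and -0.21 to 0.16 (Dynll2) and -0.27 to 0.017 (Atm) in cohort 1; for O-NR-RC minus O-NR, -0.82 to 0.037 (Dynll2), -0.64 to 0.31 (Atmin) and -0.50 to 0.014 (Atm); for O-NR-RC minus O-WT, -0.84 to 0.019 (Dynll2) and -0.79 to 0.16 (Atmin); and for HSC minus CLP, -0.17 to 0.0011 (Atm).

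The number of genes called, the background of each count, moved more than the members. It was 203 (upper quartile), 283 (no filter), 622 (1 factor) and 66 to 244 (1 library out) in HSCs; 136 (filter at 1 CPM), 336 (no filter), 661 (1 factor) and 43 to 149 in CLPs; and 366 (no filter), 204 (1 factor) and 62 to 292 in GMPs. In cohort 1 it was 34 (DESeq2 size factors), 4 (upper quartile), 56 (filter at 1 CPM), 80 (no filter), 64 (DESeq2), 3737 (1 factor), 491 (5 libraries) and 4 to 46 (1 library out) for O-NR minus O-WT. For O-NR-RC minus O-NR it was 36 (filter at 1 CPM), 56 (no filter), 26 (DESeq2), 595 (1 factor), 988 (5 libraries) and 7 to 135 (1 library out), and for O-NR-RC minus O-WT it was 71 (DESeq2 size factors), 3 (upper quartile), 79 (filter at 1 CPM), 100 (no filter), 106 (DESeq2), 4688 (1 factor), 2709 (5 libraries) and 5 to 484 (1 library out). HSC minus CLP gave 6066 calls in the 12 O-WT libraries alone.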
